A study of Schmidtea mediterranea with 16 samples.

Results

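Irradiated X1 cells under atm knockdown were compared with irradiated X1 cells under control knockdown in the planarian Schmidtea mediterranea. The members are 8 of the 16 RNA-seq libraries of the series, chosen by their labels: 4 libraries of atm(RNAi) cells and 4 libraries of unc-22(RNAi) cells. In both groups the animals had received 2000 rads and the cells were collected 1 day later, so irradiation is shared and only the target of RNA interference (RNAi) differs. The other 8 libraries are of unirradiated atm(RNAi) and unirradiated unc-22(RNAi) cells, 4 of each. They entered the fit to estimate the spread between libraries and are described only where they set the irradiated groups in context. The labels give the RNAi target, the radiation and the sorted cell population, and nothing in them says whether the 4 libraries of a group came from separate animals or sorts. P values therefore measure only the spread between these libraries, which may in part be technical.

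ATM is a protein kinase that is activated at breaks in DNA and passes the signal to proteins that halt the cell cycle, start repair or start cell death. Planarians keep a large population of dividing stem cells, the neoblasts, which renew all tissues and are lost after a high dose of radiation. The X1 gate of flow cytometry collects planarian cells with a high DNA content, which in unirradiated animals are mostly dividing neoblasts. The gene unc-22 is a nematode muscle gene commonly used as an RNAi control in planarians. The comparison asks how the transcripts that remain in this gate after irradiation differ when atm is knocked down. The files give genes by transcript identifier and do not pair them with names, so the atm transcript, neoblast markers and markers of other cell types were not analysed here. How far atm was knocked down and the cell type of the gate rest on the labels alone. A gate holding fewer cells of a type and cells holding less of a transcript cannot be told apart in these bulk libraries.

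The libraries differed in more than their RNAi target. The irradiated atm(RNAi) libraries held 13.9 to 21.8 M reads counted in genes (M, units of 1000000 reads), against 6.99 to 15.1 M in irradiated unc-22(RNAi). Unmapped reads made up 39.7% ± 2.85 of the reads in irradiated atm(RNAi) and 61.4% ± 8.84 in irradiated unc-22(RNAi) (SD, n = 4 each), with no overlap between the groups. An exact two-sided permutation test gave p = 0.0286, the lowest value possible with 70 splits; adjusted by Benjamini-Hochberg for 5 library measures it was 0.0714. Reads mapped to several places also did not overlap, at 9.19% ± 0.457 in irradiated atm(RNAi) and 5.74% ± 1.20 in irradiated unc-22(RNAi), with the same exact permutation p and adjusted p. The 10 most abundant genes of a library took 15.1% ± 1.51 of the gene reads in irradiated atm(RNAi) and 20.7% ± 4.47 in irradiated unc-22(RNAi) (exact permutation p = 0.0571, adjusted 0.0714). At a common depth of 6.99 M reads, 19187 ± 979.5 genes were expected to have at least 1 read in irradiated atm(RNAi) and 18249 ± 1153 in irradiated unc-22(RNAi) (exact permutation p = 0.257). With at least 5 reads the difference turned round, to -833 genes. With all 8 libraries none of the 5 measures passed an adjusted p of 0.05. Without irradiated unc-22(RNAi) replicate 1, unmapped reads, reads mapped to several places and the top 10 genes each had an adjusted exact permutation p of 0.0476. For the first 2 of these the difference was then smaller, at -20.3 against -21.7 and 3.35 against 3.45 percentage points. The adjusted p depends on how many of the 5 measures reach the lowest possible p, so passing alone does not mark a larger difference. The part of the 5 measures in the differences between genes given here was not tested.

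The irradiated libraries of each group were spread widely. On the first principal component of log2 CPM over the 8 irradiated libraries (CPM, counts per 1000000 reads after library scaling), which held 40.8% of the variance, atm(RNAi) replicates 1 to 4 were at 148, -12.4, 7.18 and 72.1. The unc-22(RNAi) replicates 1 to 4 were at 41.5, -150.0, -38.7 and -67.5. Replicate 1 of unc-22(RNAi) fell among the atm(RNAi) libraries, and atm(RNAi) replicate 1 and unc-22(RNAi) replicate 2 lay at the opposite ends. None of these values was far enough from the other 3 of its group to count as outlying by Dixon's criterion. Counts of genes are given with and without these 3 libraries. The median SD of a gene within a group, in log2 CPM, was 0.49 in irradiated atm(RNAi) and 0.66 in irradiated unc-22(RNAi), against 0.32 in unirradiated atm(RNAi) and 0.40 in unirradiated unc-22(RNAi). The compared groups thus varied more than the unirradiated groups with which they share 1 estimate of the spread.

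In irradiated atm(RNAi), 2045 of the 17843 genes tested were higher and 600 were lower than in irradiated unc-22(RNAi). Genes were called where the p value of edgeR's quasi-likelihood F test, adjusted by Benjamini-Hochberg over all tested genes, was below 0.05. The called genes were 14.8% of the tested ones, 11.5% higher and 3.36% lower. The log2 fold change of the higher genes had quartiles of 0.67 and 1.18 around a median of 0.84, and that of the lower genes had quartiles of -1.63 and -0.82 around a median of -1.18. Both medians were the same when genes with 0 reads in a group were set to a floor of 3 reads over that group. At least 2-fold differences numbered 728 among the higher and 368 among the lower genes, and over all tested genes the median was 0.00. In this fit the higher genes were more numerous, and the lower genes had the larger median difference. The count depended on the fit: the 8 irradiated libraries fitted alone, with the groups as the only terms, gave 0 called genes by edgeR, with 3478 of 15486 genes at an unadjusted p under 0.05, 1724 of them higher. The smallest adjusted p in that fit was 0.0634, and 295 genes, 205 of them higher, were under 0.1. The same 8 libraries with the replicate number as a block gave 2507 called genes by edgeR (16.2%), 1208 higher and 1299 lower. The labels do not say whether equal numbers mark pairs. With all 16 libraries and a separate spread for each group, limma-voom called 2150 genes, or 12% of those tested.

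**Figure D1:**
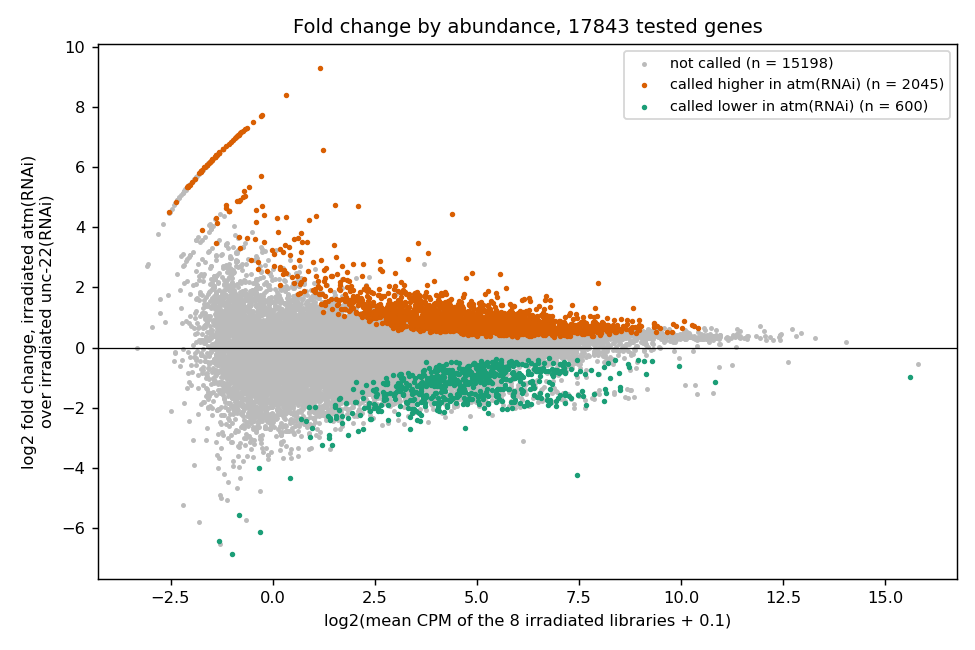
Log2 fold change of irradiated atm(RNAi) over irradiated unc-22(RNAi) (vertical axis) against the log2 of the mean CPM of the 8 irradiated libraries plus 0.1 (horizontal axis), 1 point a gene. The 2045 genes called higher lie mostly at high abundance, the 600 called lower at intermediate abundance, and the arc at the upper left holds genes with 0 reads in irradiated unc-22(RNAi).

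How many calls were higher and how many lower varied with the scaling and the tool. The share of higher genes was 77.3% of the calls under TMM scaling and 63.1% under relative log expression scaling, which called 13.3% of the tested genes. Under upper quartile scaling, with 12.1% called, it was 66.6%. It was 61.3% by limma-voom, with 23.8% called, and 55.0% by DESeq2, with 20.1% called. DESeq2 gave no adjusted p for 4503 of the 17843 tested genes, which count here as not called. Relative log expression scaling moved the median over all tested genes to -0.12 in log2, and fold changes are to be read against a shift of that size. Of the 2645 called genes, 2093 were also called in the same direction with relative log expression factors, 2427 by DESeq2 and 2516 by limma-voom. Those shared genes were 88.4%, 67.6% and 59.2% of the calls of these settings, in that order.

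Higher calls were concentrated among abundant genes. The tested genes were split into 5 classes by mean abundance. In the most abundant class (3569 genes, median of the mean CPM over all 16 libraries 87.6), 28.8% were higher and 3.64% lower in irradiated atm(RNAi). In the next class, with a median of 20.5 CPM, 19.1% were higher and 6.95% lower. The middle class, with a median of 5.69 CPM, held 5.72% higher and 4.90% lower genes. In the least abundant class, with a median of 0.51 CPM, 2.07% were higher and 0.168% lower. The median standard error of the log2 fold change was 0.17 in the most abundant class and 1.35 in the least abundant one, so a 2-fold difference was mostly not detectable at this depth in rare transcripts. The median log2 fold change itself also ran with abundance, at 0.36 in the most abundant class and -0.38 in the least abundant one.

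The called genes were also summed as a share of all gene reads. The 2045 higher genes took 17.1%, 14.2%, 14.3% and 15.2% of the gene reads in irradiated atm(RNAi) replicates 1 to 4, against 11.5%, 7.80%, 10.6% and 8.94% in irradiated unc-22(RNAi) replicates 1 to 4. The 600 lower genes took 3.59%, 6.599%, 5.84% and 5.61% in irradiated atm(RNAi), against 9.66%, 15.04%, 9.86% and 11.9% in irradiated unc-22(RNAi). These shares do not overlap between the groups for either set, which is a description, since the genes were called on the same libraries. The median level of a higher gene was 39.0 CPM in irradiated atm(RNAi) and 22.004 CPM in irradiated unc-22(RNAi), while it was 47.2 CPM in unirradiated atm(RNAi) and 49.2 CPM in unirradiated unc-22(RNAi). The median level of a lower gene was 15.97 CPM in irradiated atm(RNAi) and 35.4 CPM in irradiated unc-22(RNAi), while it was 9.66 CPM in unirradiated atm(RNAi) and 9.41 CPM in unirradiated unc-22(RNAi). For both sets the irradiated atm(RNAi) median lay between that of irradiated unc-22(RNAi) and those of the unirradiated groups.

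The most abundant gene among those that met every condition for naming in the higher direction was dd_Smed_v6_1582_0_1. The conditions were a call at 2-fold or more, no overlap between the 4 and 4 libraries, a call in each of 16 fits without 1 library, and calls by DESeq2 and limma-voom; 452 higher and 73 lower genes met them. Its level was 742, 464, 669 and 702 CPM in irradiated atm(RNAi) replicates 1 to 4, against 338, 159, 302 and 239 CPM in irradiated unc-22(RNAi) replicates 1 to 4. The lowest atm(RNAi) library, replicate 2, was still above the highest unc-22(RNAi) library, replicate 1. The means were 644 ± 124 CPM in irradiated atm(RNAi) and 259 ± 78.2 CPM in irradiated unc-22(RNAi) (SD, n = 4 each). The log2 fold change was 1.31 (SE 0.19; edgeR adjusted p = 0.000485). Without irradiation it was at 816 ± 42.6 CPM in atm(RNAi) and 806 ± 40.1 CPM in unc-22(RNAi), with a log2 fold change of 0.02.

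The second higher gene was dd_Smed_v6_2016_0_1, with 522, 287, 382 and 452 CPM in irradiated atm(RNAi) replicates 1 to 4. In irradiated unc-22(RNAi) replicates 1 to 4 it was at 141, 49.4, 86.9 and 90.7 CPM. The groups again did not overlap, and replicate 2 was the lowest library in both. On the log2 scale the difference was 2.16 (SE 0.24; edgeR adjusted p = 6.14e-05), and it ranged from 1.97 to 2.49 over the 16 fits without 1 library. Unirradiated cells held 535 ± 21.9 CPM in atm(RNAi) and 557 ± 27.7 CPM in unc-22(RNAi) (SD, n = 4 each), and atm(RNAi) replicate 1 alone reached the unirradiated range after irradiation.

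Among lower genes the most abundant was dd_Smed_v6_20_0_1. It had 39.9, 221, 119 and 122 CPM in irradiated atm(RNAi) replicates 1 to 4, against 275, 631, 339 and 460 CPM in irradiated unc-22(RNAi) replicates 1 to 4. In atm(RNAi) the values spanned a wide range, with replicate 1 inside the unirradiated range and replicate 2 nearest the lowest unc-22(RNAi) library. The difference on the log2 scale was -1.76 (SE 0.38; edgeR adjusted p = 0.00586). Unirradiated cells held 46.6 ± 7.39 CPM in atm(RNAi) and 53.2 ± 19.6 CPM in unc-22(RNAi) (SD, n = 4 each).

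The second lower gene, dd_Smed_v6_48_0_1, followed the same order of libraries. Its level was 29.2, 139, 84.3 and 93.6 CPM in irradiated atm(RNAi) replicates 1 to 4, against 195, 470, 237 and 386 CPM in irradiated unc-22(RNAi) replicates 1 to 4. On the log2 scale it differed by -1.90 (SE 0.36; edgeR adjusted p = 0.00285). In both genes replicate 2 was the highest library of each irradiated group and replicate 1 the lowest. In the 8 irradiated libraries alone, with the groups as the only terms, none of the 4 named genes was called. Their edgeR adjusted p values in that fit were 0.0806, 0.0634, 0.106 and 0.0975, in the order described. Their log2 fold changes in that fit were 1.23, 2.08, -1.85 and -1.99. Adding the replicate number as a block gave edgeR adjusted p values of 0.0027, 0.0011, 0.00233 and 0.0022, though replicate numbers were not taken as pairs.

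**Figure D2:**
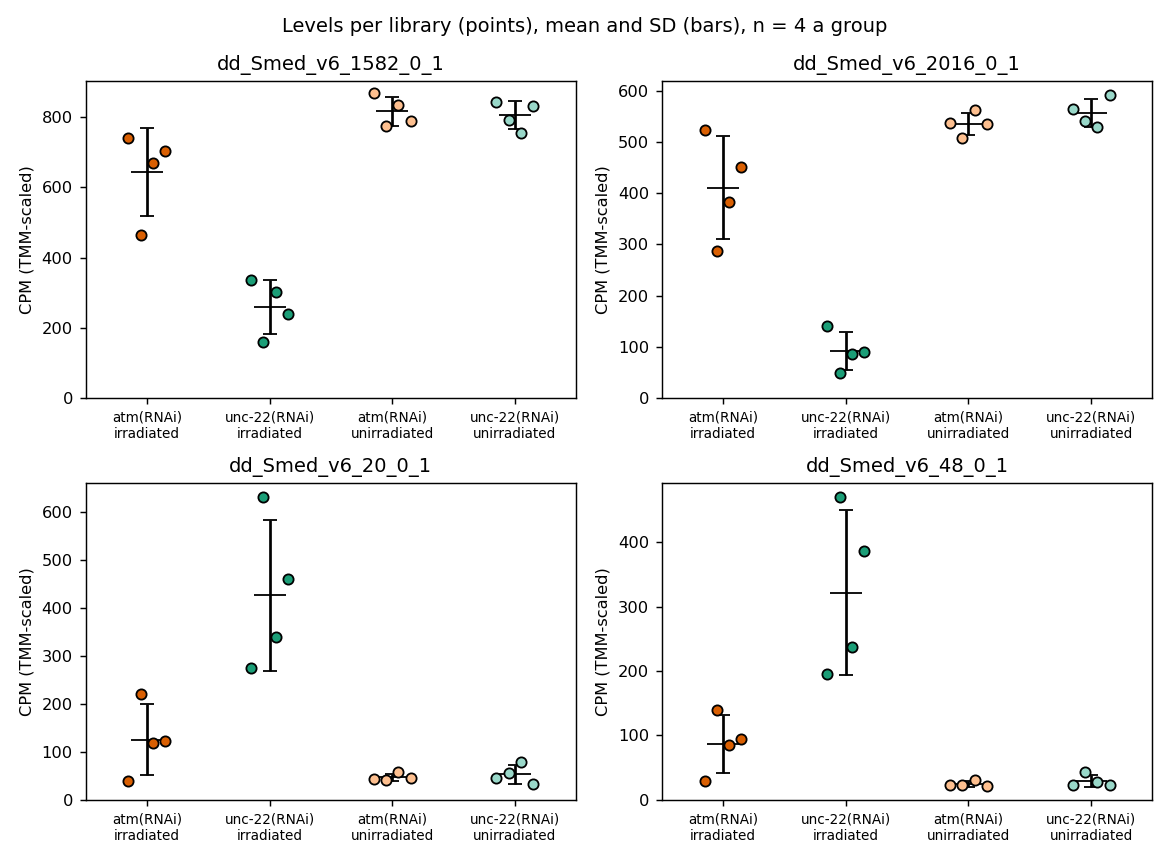
CPM of the 4 named genes (vertical axes, linear from 0) in each library, with the mean and SD of 4 libraries a group. In irradiated cells the atm(RNAi) points lie above the unc-22(RNAi) points for dd_Smed_v6_1582_0_1 and dd_Smed_v6_2016_0_1 and below them for dd_Smed_v6_20_0_1 and dd_Smed_v6_48_0_1, while the unirradiated groups overlap for all 4 genes.

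Some transcripts were read in irradiated atm(RNAi) and not at all in irradiated unc-22(RNAi). Over the whole matrix 29 genes had 0 reads in all 4 unc-22(RNAi) libraries and at least 5 reads in every atm(RNAi) library, and 1 gene showed the opposite pattern. These genes were picked by the values of the compared libraries. Of the 29 genes, 20 were tested, and all 20 are among the 2045 called higher, so their calls are no separate support. Of the genes called higher, 62 had 0 reads over the irradiated unc-22(RNAi) libraries and 2 of the lower ones had 0 reads over the irradiated atm(RNAi) libraries. Such genes passed the filter on low counts only through libraries outside the group with 0 reads. How many uncalled genes had 0 reads in a group was not counted, so these counts are a description. With 3 reads over the unc-22(RNAi) group taken as the floor, or 0.0623 CPM, the 62 genes were at least 2.35-fold to at least 68.9-fold higher in irradiated atm(RNAi). The floor covers counting error only, and the irradiated unc-22(RNAi) libraries were the shallower ones. The part of depth in these counts was not tested.

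Complete separation of the groups was counted over all tested genes. For 1866 genes all 4 irradiated atm(RNAi) libraries lay above all 4 irradiated unc-22(RNAi) libraries, which is 10.5% of the tested genes. For 720 genes, or 4.04%, they lay below, which makes 14.5% in all. Among the called genes, 1498 of 2045 higher ones (73.3%) and 299 of 600 lower ones (49.8%) were separated in this way. The genes were called on these same libraries, so the shares among them are a description. Replicate 1 was the highest atm(RNAi) library for 78.5% of the higher genes and the lowest for 77.2% of the lower genes. Replicate 2 stood at the other end, as the lowest atm(RNAi) library for 67.9% of the higher and the highest for 66.3% of the lower genes. In unc-22(RNAi), replicate 1 was the highest library for 54.3% of the higher genes and the lowest for 60.8% of the lower genes, and replicate 2 was the lowest for 68.1% of the higher and the highest for 61.8% of the lower genes. The median over the higher genes was 46.6, 33.3, 38.3 and 38.3 CPM in irradiated atm(RNAi) replicates 1 to 4, against 25.4, 16.5, 23.9 and 20.6 CPM in irradiated unc-22(RNAi) replicates 1 to 4. Over the lower genes it was 9.15, 22.2, 16.8 and 14.8 CPM in atm(RNAi), against 25.6, 45.4, 31.8 and 36.7 CPM in unc-22(RNAi). In these medians the replicate numbered 1 of each group lay nearest the unirradiated groups and the replicate numbered 2 farthest from them.

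Leaving out 1 library changed the number of called genes by more than 1.5 times for 3 of the 16 libraries, all irradiated. Without atm(RNAi) replicate 1 it was 1157 (6.21% of those tested), without unc-22(RNAi) replicate 4 it was 1725 (9.32%), and without unc-22(RNAi) replicate 1 it was 4366 (23.5%). Without unc-22(RNAi) replicate 2, a smaller change, it was 2024 (11%). Without both libraries numbered 1, a setting chosen after seeing the data, it was 2493 (13.5%), and 1990 of these genes were among the 2645. In every one of the 16 fits without 1 library, 1106 of the 2645 genes (41.8%) stayed called in the same direction, 961 higher and 145 lower.

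Each left-out irradiated library was then placed by the genes called without it. A gene counted when the left-out library lay on the side of its own group, seen from the midpoint of the group means of the other libraries. For atm(RNAi) replicates 1, 3 and 4 this held for 99.05%, 85.8% and 92.9% of the called genes, against 75.5%, 57.0% and 69.2% of the genes not called. For atm(RNAi) replicate 2 it held for 52.8% of 3626 called genes, against 45.3% of the genes not called; among the called genes it held for 66.0% of the higher and 23.01% of the lower ones. For unc-22(RNAi) replicates 2, 3 and 4 the share was 87.8%, 69.6% and 85.9%, against 65.7%, 55.5% and 65.3% of the genes not called. For unc-22(RNAi) replicate 1 it was 37.9% of 4346 called genes and 41.2% of the genes not called, so this library lay on the atm(RNAi) side of the midpoint for most genes of both kinds. That library also had the fewest gene reads, and its part in this was not tested. The 8 fits share most of their libraries, so these shares are not independent of each other.

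**Figure D3:**
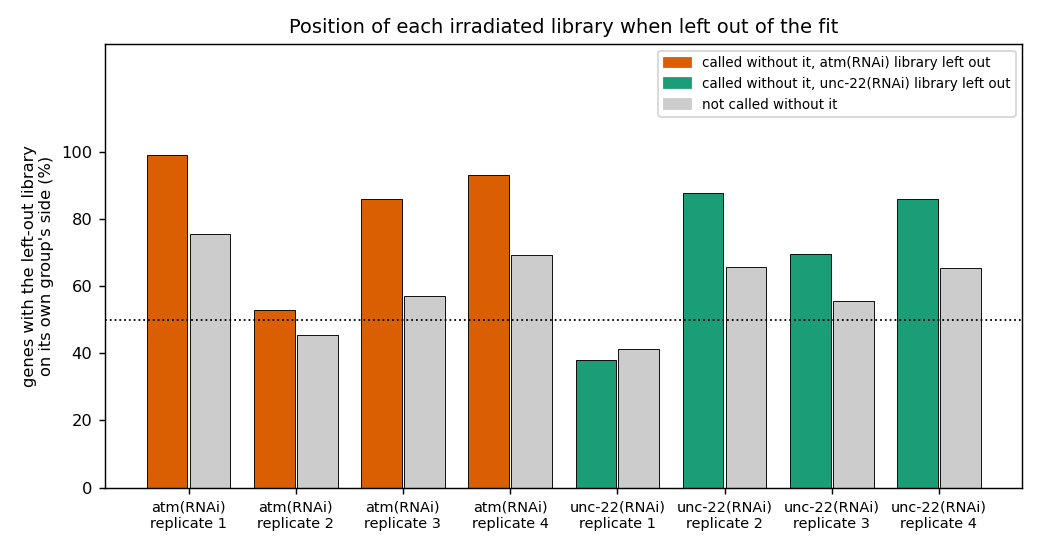
For each irradiated library left out of the fit, the percent of genes (vertical axis) for which it lay on its own group's side of the midpoint, among genes called without it (coloured bars) and not called (grey bars); the dotted line marks 50%. Replicate 1 of unc-22(RNAi) is the library below the line among called genes, at 37.9%, and atm(RNAi) replicate 2 is close to it, at 52.8%.

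The names of the deposited files place replicates 1 and 2 of every group on sequencing lane 8 and replicates 3 and 4 on lane 7, which gives a pair of comparisons without a shared library. The lane 7 libraries, 2 a group, called 931 genes by edgeR (5.15% of 18084 tested), 622 higher and 309 lower in irradiated atm(RNAi). All 931 were tested in lane 8 as well, where 923 of them (99.1%) had the same direction, against 75.2% of all 17207 genes tested in both lanes. Their median absolute log2 fold change was 1.16 in lane 7, and in the same direction it was 1.08 in lane 8. The lane 8 libraries alone, which include the 3 libraries named above for their place on the first principal component, called 0 genes (edgeR), with 1781 of 18630 at an unadjusted p under 0.05, 1379 of them higher. Over all genes tested in both lanes the log2 fold changes correlated at a Pearson r of 0.34, across genes, which are not independent replicates and share the abundance-dependent error of rare transcripts. With lane as a term in the fit of 16 libraries, 2535 genes (14.2%) were called, 2440 of them among the 2645.

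**Figure D4:**
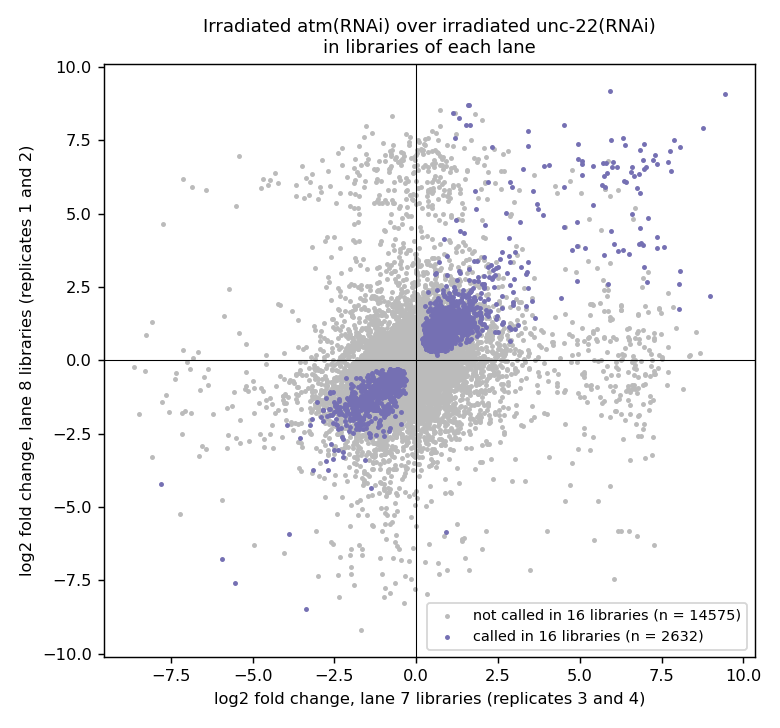
Log2 fold change of irradiated atm(RNAi) over irradiated unc-22(RNAi) in the lane 7 libraries (horizontal axis) and the lane 8 libraries (vertical axis), 1 point a gene tested in both lanes. The 2632 genes called in the 16 libraries lie in the upper right and lower left apart from 1 of them; they were called on these same libraries, so this is a description.

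Without irradiation the same genes lay close together in the RNAi groups, though a test that calls nothing does not show that they were equal. Unirradiated atm(RNAi) and unirradiated unc-22(RNAi) cells share no library with the irradiated comparison. They gave 0 called genes (edgeR, percent called 0), with 278 of 17843 at an unadjusted p under 0.05. The test used the spread shared with the irradiated groups. Their median SD was 0.49 in atm(RNAi) and 0.66 in unc-22(RNAi), against 0.32 and 0.40 in the same groups unirradiated. A shared spread of this kind can hide differences between the unirradiated groups, so few low p values do not show an absence of effect. Of the 2045 genes higher in irradiated atm(RNAi), 682 (33.3%) had a positive log2 fold change without irradiation, with a median of -0.05. Of the 600 lower genes, 323 (53.8%) had a positive one, with a median of 0.02. Over all tested genes 51.4% were positive, with a median of 0.01. At an unadjusted p under 0.05 there were 4 of the higher genes and 9 of the lower genes. The higher genes thus leaned slightly to lower levels under atm(RNAi) without irradiation, by far less than their median of 0.84 after it. They were called on the irradiated libraries, so 0.84 is a selected value and the unirradiated median is not. The lean was not set against genes of like abundance. It is also smaller than the median of -0.12 that relative log expression scaling gave over all tested genes in the irradiated comparison. Across the 17843 genes the fold changes of the irradiated and unirradiated comparisons had a Pearson r of -0.05.

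Transcripts of the same called gene mostly had the same direction. The per-library files hold counts for 38405 transcripts of the matrix genes, and 4802 genes have more than 1 transcript. Of the called genes, 206 had at least 2 transcripts that passed the filter on low counts, and in 173 of them (84.0%) every transcript had the direction of the gene, whose count is the sum of its transcripts. In genes that were not called this share was 52.98% of 1678. Called genes were selected for a change in that sum, so the 2 shares are a description. A test of unequal change among the transcripts of a gene, over 1884 genes, called 0 (edgeR diffSpliceDGE, Benjamini-Hochberg; percent called 0), with 212 at an unadjusted p under 0.05 and a smallest adjusted p of 0.0625. The gene with the smallest p was dd_Smed_v6_8768_0_1, whose main transcript was at 28.0 ± 7.18 CPM in irradiated atm(RNAi) and 15.7 ± 4.03 CPM in irradiated unc-22(RNAi) (SD, n = 4 each). Its second transcript, dd_Smed_v6_8768_0_2, had 0 reads in all 4 atm(RNAi) libraries and 3, 0, 9 and 11 reads in unc-22(RNAi) replicates 1 to 4. The second gene, dd_Smed_v6_8872_0_1, also differed through a transcript with few reads. Its transcript dd_Smed_v6_8872_0_2 had 14, 5, 11 and 16 reads in irradiated atm(RNAi) replicates 1 to 4 and 0 reads in all 4 irradiated unc-22(RNAi) libraries. The count of genes moved to 41 of 2053 tested without unc-22(RNAi) replicate 1. It stayed at 0 without atm(RNAi) replicate 1 (2051 tested) or 4 (2045 tested).

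**Figure D5:**
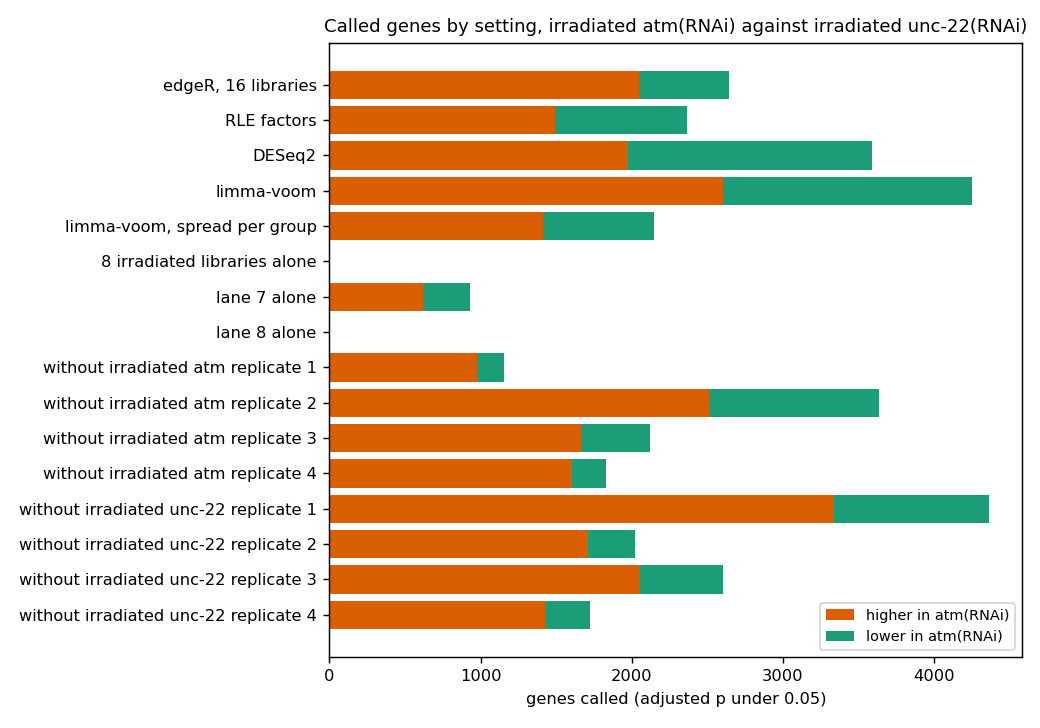
Number of genes called at an adjusted p under 0.05 (horizontal axis), higher or lower in irradiated atm(RNAi), for the edgeR fit of 16 libraries and other settings. The count is 2645 in the 16 libraries, runs from 1157 to 4366 in the fits without 1 irradiated library, and is 0 in the 8 irradiated libraries alone and in lane 8 alone.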

How the data were processed

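Poly(A) RNA of sorted X1 cells was sequenced from a directional library kit, per the labels' protocols. Trim Galore 0.6.5 and STAR 2.7.9 are named in the submitters' processing notes, without settings. The authors deposited raw read counts per gene (a matrix) and per transcript (a file for each library). Reads mapped to several places are outside these counts, so near-identical genes are counted too low.

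All 16 libraries were fitted with edgeR 4.0.16 in R 4.3.3: filterByExpr kept 17843 genes and removed 8990, scaling was by TMM, and each of the 4 groups had its coefficient in 1 quasi-likelihood fit, leaving 12 residual degrees of freedom. CPM values are TMM-scaled, and log2 CPM has a prior count of 2. Named genes are, per direction, the 2 with the highest mean CPM in the 8 irradiated libraries among those meeting the conditions given with them, and for transcript usage the 2 with the smallest p. Alternatives used DESeq2 1.42.0, limma 3.58.1, other scalings, no filter, unstranded counts, blocks, lanes and left-out libraries. All pairs of libraries within the compared groups differed by more than sampling noise (chi-square per degree of freedom at least 28.7). Scripts were tested on simulated data in which all groups shared the spread of a gene. Such data cannot show how calls behave where the spread differs between groups, as it did here. Members, gene rules and tests were chosen with earlier results of these data known. Lists of marker and DNA damage genes could not be matched to identifiers.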

Additional observations from a re-analysis of the deposited data

Results flagged for a closer look

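Among 24 sets of 4 irradiated libraries (library measures, named genes, medians of the called genes and the first principal component), 1 held a library far from the others. Irradiated atm(RNAi) replicate 2 had 13.9 M reads counted in genes, while the other 3 libraries of that group had 21.1 to 21.8 M. Chance alone marks about 1 set in 20.

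The effect of atm(RNAi) differed between irradiated and unirradiated cells for a pair of the named genes, by the interaction term of the same edgeR fit. The difference was 1.29 in log2 for dd_Smed_v6_1582_0_1 (adjusted p = 0.0164, edgeR quasi-likelihood) and 2.22 for dd_Smed_v6_2016_0_1 (adjusted p = 0.00279, edgeR quasi-likelihood). It was -1.57 for dd_Smed_v6_20_0_1 (edgeR adjusted p = 0.0994) and -1.65 for dd_Smed_v6_48_0_1 (edgeR adjusted p = 0.0758), which were not called. Over all genes the interaction was called for 638 of 17843. All 4 irradiated atm(RNAi) libraries of the first 2 genes lay above the 4 irradiated unc-22(RNAi) libraries. That was a condition for naming a gene, so it adds no support. The interaction differences use the irradiated libraries in which the genes were called, so they are not independent of that call.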

How the results depend on the processing

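The count of 2645 called genes was 4252 with limma-voom, 931 in lane 7 alone and 0 both in lane 8 alone and in the 8 irradiated libraries alone; it ranged from 1157 to 4366 over the 16 fits without 1 library. The cause of these shifts was not tested. Under the other 24 of 31 alternatives the count stayed within 1.5 times. The 4 named genes kept their direction in all 124 fits and their call in 116. The other 8 were the 8 irradiated libraries alone and lane 8 alone, for each gene. The conditions for naming required the call in the 16 fits without 1 library and by DESeq2 and limma-voom. Those settings were therefore fixed by the choice of genes and do not count as checks. Replicate numbers were not taken as pairs, since the labels do not say whether equal numbers mark pairs. The deviations of same-numbered irradiated libraries correlated at 0.429, 0.305, 0.0624 and -0.0735 for replicates 1 to 4. Those of unequal number correlated at -0.363 to 0.227, so replicates 1 and 2 gave the highest values. Whether equal numbers share a batch was not tested. With the replicate number as a block, 3692 genes were called in 16 libraries and 2507 in the 8 irradiated ones alone, where 0 were called without it; of the 2507, 1208 were higher and 1299 lower, so the majority turned to lower genes. The 4 named genes were called in that blocked fit, at edgeR adjusted p values of 0.0027, 0.0011, 0.00233 and 0.0022; for transcript usage the block gave 0. Transcript usage called 8 of 480 tested genes with at least 10 reads required in every irradiated library, against 0 of 1884 in the main fit. Without 1 irradiated library it called 0 to 41 genes, with 2033 to 2070 tested. Among library measures, the difference in reads taken by the top genes was -2.83 percentage points with 100 genes in place of 10, at an adjusted exact permutation p of 0.0476, and the difference in genes detected was -833 at 5 reads against 938 at 1 read. Without 1 irradiated library the differences ran from -25.3 to -18.5 for unmapped reads and 2.99 to 3.96 for reads mapped to several places. For the top 10 genes they ran from -6.97 to -3.95. Without unc-22(RNAi) replicate 1 each of these 3 passed, at an adjusted exact permutation p of 0.0476. That adjusted p depends on how many of the 5 measures reach the lowest possible p, so passing alone does not mark a larger difference. Depth limits the rarest genes most.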
